A study of Homo sapiens with 10 samples.

Results

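The genes described here encode 10 receptors through which thrombin and related proteases, histamine, bradykinin, sphingosine 1-phosphate (S1P) and lysophosphatidic acid (LPA) raise cytosolic Ca2+. They were taken by symbol from the 60448 genes of the count table, with Ensembl identifiers matched to GENCODE 44 on GRCh38. Of the 10 receptors, 8 passed the filter on low counts and entered a test over 16310 genes. The receptors F2R, F2RL1 and F2RL3 are cut open by proteases, HRH1 binds histamine, BDKRB1 and BDKRB2 bind kinins, S1PR1, S1PR2 and S1PR3 bind S1P, and LPAR1 binds LPA.

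These receptors span the membrane and pass their signal to heterotrimeric G proteins. G proteins of the Gq class switch on phospholipase C beta, which makes inositol trisphosphate, and this messenger opens receptor channels of the endoplasmic reticulum that release stored Ca2+. In endothelium such agonists are known for loosening or tightening the barrier between cells, for release of nitric oxide and prostacyclin and, for S1P acting on S1PR1, for keeping vessels closed. S1PR1 signals mainly through Gi and S1PR3 through Gq among others, so the receptors are not interchangeable.

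The data were RNA-seq read counts per gene of untreated cultures of 2 human endothelial lines, each sequenced as 5 biological replicates. The EA.hy926 line is a fusion of umbilical vein endothelial cells with A549 lung carcinoma cells, and was grown in Advanced DMEM with 5% serum. HMEC-1 comes from dermal microvascular endothelium immortalized with the SV40 large T antigen, and was grown in MCDB 131 with 10% serum, hydrocortisone at 1 μg/mL and epidermal growth factor at 10 ng/mL. The study measured Ca2+ responses of both lines to several agonists, bradykinin among them, and sequenced their RNA to compare genes of Ca2+ signalling. All libraries were labelled wild type. Each group is thus a single immortal line in its own medium, and line and medium cannot be told apart. The paper's general culture protocol detached cells with trypsin, a protease known to activate the F2RL1 product, unless stated otherwise. Its section on RNA extraction names confluent monolayers and no trypsin, so whether the sequenced cells met trypsin is not clear from it.

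Libraries held 34846046 to 39899324 counts for EA.hy926 and 33391640 to 43877224 for HMEC-1. As CPM, counts per 1000000 counts of a library, the 3 counts used as a floor for genes near 0 made 0.0781 to 0.0904 in the former and 0.0651 to 0.0856 in the latter. Values in CPM were scaled by TMM factors. Of 12 endothelial markers, 6 were higher and 2 lower in EA.hy926, with summed levels of 5388 to 6114 CPM there against 1932 to 1992 CPM for HMEC-1, and EMCN had at most 3 counts in every EA.hy926 library. Of 10 fibroblast and mural markers, 1 was higher and 4 lower in EA.hy926, with sums of 7.24 to 9.29 CPM against 475 to 504 CPM. DCN and LUM had at most 3 counts in every library of both lines, and COL1A2, COL3A1 and PDGFRA in every EA.hy926 library. Of 12 epithelial markers, 2 were higher and 2 lower in EA.hy926, with sums of 1275 to 1389 CPM against 425 to 488 CPM, and CDH1, ELF3, ESRP1, GRHL2 and SFTPB had at most 3 counts in every library. Of 10 blood cell markers, 1 was higher and 1 lower, with sums of 9.53 to 12.1 CPM against 0.781 to 1.35 CPM. The sum in EA.hy926 was mostly LYZ, at 9.08 to 11.8 CPM there and at most 1 count per library in HMEC-1, and 34.7% of its exonic bases are also covered by another gene. The other 9 markers summed to 0.352 to 0.755 CPM against 0.781 to 1.33 CPM, and CD3E, HBB, ITGAM and MS4A1 had at most 3 counts in every library. Higher and lower here mean past both thresholds given below, by which 19.1% of all genes tested were higher and 16.4% lower in EA.hy926. The part of these markers in the receptor differences was not tested.

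A gene was called different at an adjusted p under 0.05 and an absolute log2 fold change (log2FC, EA.hy926 over HMEC-1) above 1. Of the 10 receptor genes, 5 were called higher in EA.hy926 (F2R, F2RL1, F2RL3, LPAR1 and S1PR1) and 1 lower (S1PR3). HRH1 was higher without reaching the fold threshold, S1PR2 did not pass the test, and BDKRB1 and BDKRB2 were not tested. Over all 16310 genes tested, 35.5% were called, 19.1% higher and 16.4% lower in EA.hy926, and with library totals as the only scaling the majority turned, to 2809 genes higher and 3085 lower. The median log2FC of the 8 receptor genes tested was 1.33, that of all genes tested -0.01. By adjusted p alone 7 of the 8 passed, beside 85.8% of all genes, and the libraries of the lines did not overlap in CPM for 7 of the 8, beside 77.4% of all genes. These last 2 shares are close to those over all genes, and the size of a difference says more here than its p.

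**Figure D1:**
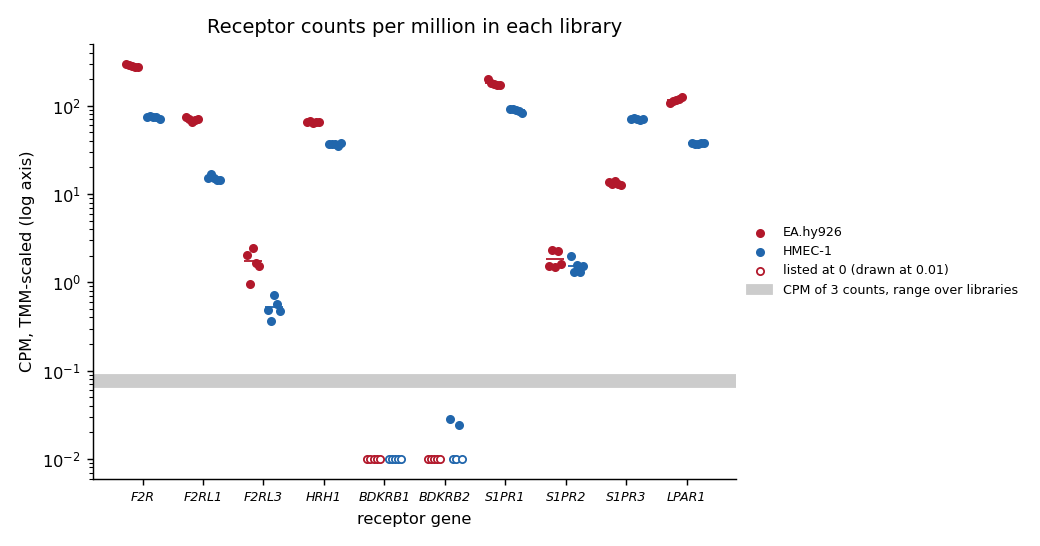
CPM of each receptor gene in every library, on a log axis, with 5 EA.hy926 libraries in red, 5 HMEC-1 libraries in blue, and short lines at the means. S1PR3 is the receptor with the blue points above the red, from 68.4 CPM upward against at most 14.0 CPM, the points of S1PR2 overlap, and BDKRB1 and BDKRB2 lie at 0 or below the grey band that marks 3 counts.

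Receptors cut by proteases came first by size of difference among those higher in EA.hy926. F2R encodes the main thrombin receptor of endothelium (ENSG00000181104, chr5:76716126-76735770, plus strand). Its levels were 299, 293, 284, 278 and 278 CPM in EA.hy926 replicates 1 to 5 and 75.2, 75.7, 75.5, 74.3 and 71.3 CPM in HMEC-1 replicates 1 to 5. Every EA.hy926 library lay above every HMEC-1 library, and within a line the values were narrowly spread. In such bulk libraries, fewer cells with a message and less of it per cell cannot be told apart. The difference was 3.85-fold (log2FC 1.94, SE 0.029, adjusted p = 2.3e-23, edgeR quasi-likelihood test with Benjamini-Hochberg adjustment). F2RL1 encodes a receptor cut by trypsin-like proteases but not efficiently by thrombin (ENSG00000164251, chr5:76818933-76835315, plus strand). It was measured at 74.8, 71.0, 66.2, 69.2 and 70.6 CPM in EA.hy926 libraries and at 15.2, 16.7, 15.2, 14.4 and 14.3 CPM in HMEC-1. The groups were again apart, with HMEC-1 replicate 2 the highest of its line. F2RL1 was 4.63-fold higher in EA.hy926 (log2FC 2.21, SE 0.043, adjusted p = 2.9e-21, edgeR). Exons of another gene cover 10.4% of its exonic bases, and as it is not stated whether strand was used in counting, reads there could belong to either gene.

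F2RL3 encodes a second thrombin receptor, best known from platelets, and was scarce in both lines (ENSG00000127533, chr19:16888999-16892606, plus strand). Reads numbered 76, 32, 87, 64 and 57 in EA.hy926 and 17, 15, 33, 23 and 18 in HMEC-1. As CPM these were 2.06, 0.964, 2.48, 1.67 and 1.54 against 0.485, 0.368, 0.716, 0.564 and 0.471. The lowest EA.hy926 library, replicate 2, stayed above the highest HMEC-1 library, replicate 3, in CPM, though its raw count was 1 read smaller. The difference was 3.31-fold, with a wide interval (log2FC 1.72, 95% interval 1.24 to 2.21, adjusted p = 6.9e-07, edgeR).

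Of the protease receptor counts, F2RL1 gave 24.6 ± 0.818 per 100 F2R counts in EA.hy926 and 20.4 ± 1.00 in HMEC-1 (mean ± SD, n = 5 each). The ratio, which needs no scaling between libraries, ranged from 23.3 to 25.4 in EA.hy926 and from 19.4 to 22.1 in HMEC-1, without overlap. It was 1.21-fold higher in EA.hy926 and was not tested, since it was chosen after the values were seen. Both genes were higher in EA.hy926, with similar folds.

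Near F2R on chromosome 5 lie F2RL1 and F2RL2, a relative whose product serves as a cofactor for other protease receptors. F2RL2 had 426 to 483 counts in EA.hy926 against 4 to 11, with the lines apart (12.7 against 0.178 CPM on average, log2FC 6.12, SE 0.13, adjusted p = 7.8e-21, edgeR). It lies inside IQGAP2, the gene of a cytoskeletal scaffold protein, which ends 7.99 kb before F2R begins and had 13 to 24 counts against 0 to 5 (log2FC 3.19, SE 0.43, adjusted p = 5.4e-07, edgeR). Without HMEC-1 replicate 4 the log2FC of IQGAP2 was 3.80, still called. Exons of IQGAP2 cover 2.55% of the exonic bases of F2RL2. As strand use in counting is not stated, reads there could belong to either gene, and their calls may not be separate. Of 5 other annotated protein-coding genes within 250 kb of F2R, 3 were tested, and all 3 (IQGAP2, F2RL2 and F2RL1) were called higher in EA.hy926. Over all genes tested, 19.1% were called higher. IQGAP2 and F2RL2 passed the filter on low counts through their EA.hy926 libraries, so hardly any outcome but a call as higher was open to them. The neighbours of F2RL1 include AGGF1, an angiogenic factor gene with a log2FC of -0.06, and ZBED3, with 0.84, neither of which was called. Beyond F2RL1 the next tested gene was thus AGGF1, and the untested S100Z and CRHBP lie in between.

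**Figure D2:**
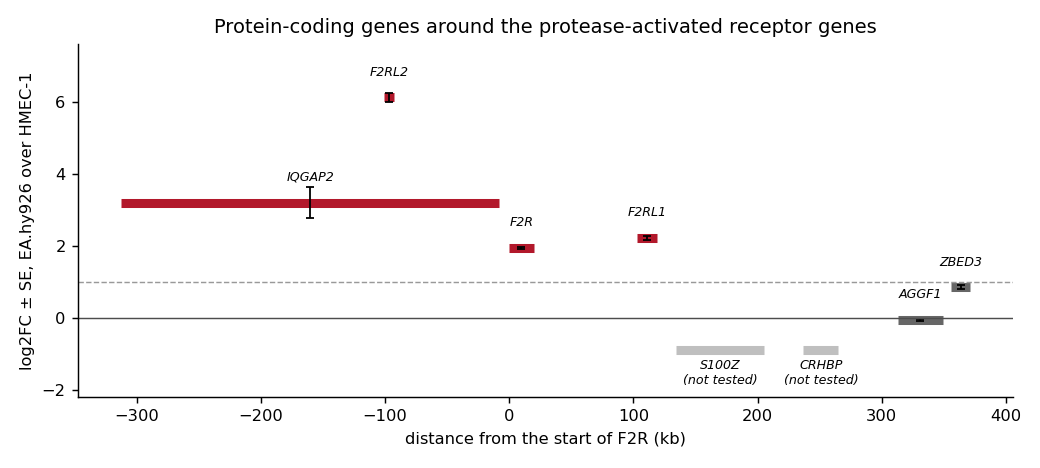
Log2FC (EA.hy926 over HMEC-1, with SE) of the protein-coding genes within 250 kb of F2R or F2RL1, plotted against distance from the start of F2R in kb, each bar as long as its gene. Called genes are red and lie between 1.94 (F2R) and 6.12 (F2RL2), tested genes that were not called are dark grey, and the untested genes in light grey have no value and are drawn below the axis at an arbitrary height.

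The promoters of F2RL1 and F2RL2 are shown because both neighbours were called higher in EA.hy926. Sequences are from RefSeq on GRCh38.p14, read 5′ to 3′ along the gene, cut where GENCODE 44 already begins the gene, with the CG pairs in capitals. CG pairs are the bases that carry most DNA methylation in vertebrates, which was not measured here. That of F2RL1 is chr5:76818780-76818932 on the plus strand and that of F2RL2 is chr5:76623414-76623653 on the minus strand.
F2RL1: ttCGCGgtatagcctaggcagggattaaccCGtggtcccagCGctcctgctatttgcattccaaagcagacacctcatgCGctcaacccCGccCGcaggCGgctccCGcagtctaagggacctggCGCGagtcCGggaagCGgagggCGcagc
F2RL2: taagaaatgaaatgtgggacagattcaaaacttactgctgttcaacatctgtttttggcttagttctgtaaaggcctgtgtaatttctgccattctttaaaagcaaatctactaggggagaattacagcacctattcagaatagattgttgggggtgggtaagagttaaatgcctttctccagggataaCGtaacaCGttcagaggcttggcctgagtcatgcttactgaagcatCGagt
Over the full 250 bases before the RefSeq start, F2RL1 holds 26 CG pairs and F2RL2 holds 3. Of 35116 promoters of that length in the table, 93.9% hold at least 1 CG pair on the strand read, the median is 11, and 19.6% hold as many as F2RL1 or more, while 29.3% hold as few as F2RL2 or fewer. These neighbours thus differed widely in CG pairs. The table has entries for 9 of the 10 receptor genes.

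Histamine acts on endothelium mainly through the HRH1 product (ENSG00000196639, chr3:11137093-11263557, plus strand). Its levels were 66.0, 66.6, 63.6, 64.6 and 66.1 CPM in EA.hy926 cultures and 37.0, 36.4, 36.5, 35.2 and 37.8 CPM in HMEC-1. HRH1 varied little within each line, and the lines did not overlap. HRH1 was 1.79-fold higher in EA.hy926 (log2FC 0.84, 95% interval 0.78 to 0.90, adjusted p = 9.6e-17, edgeR), and so stayed below the fold threshold. Its single tested neighbour within 250 kb was not called. The other histamine receptor genes, HRH2, HRH3 and HRH4, were not tested for low counts. Among these HRH2, named after its values were seen, had no read in any EA.hy926 library and 8 to 22 reads in the HMEC-1 libraries, at least 4.56-fold higher in HMEC-1 against the floor of 3 counts per library.

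The kinin receptor genes were at or near 0 in both lines. BDKRB2 encodes the constitutive bradykinin receptor (ENSG00000168398, chr14:96204679-96244166, plus strand) and had 0 counts in all 5 EA.hy926 libraries, and 1, 0, 0, 1 and 0 counts in HMEC-1. BDKRB1, whose product binds kinins shortened by carboxypeptidases and is known to be induced in inflammation (ENSG00000100739, chr14:96256210-96268967, plus strand), had 0 counts in all 10 libraries. At these depths a count of 0 allows up to 0.0904 CPM in the shallowest EA.hy926 library and 0.0856 CPM in that of HMEC-1, for counting error only. No difference between the lines could be detected for either gene, and no fold is given. In the paper, bradykinin raised Ca2+ significantly more in EA.hy926 than in HMEC-1. Those cells had been trypsinized and suspended, while the RNA came from confluent monolayers. From the response the paper proposes that bradykinin receptors are very low or negligible in HMEC-1. In these counts BDKRB1 and BDKRB2 had no read in EA.hy926. Blockers of Ca2+ influx did not interfere, which the paper took as evidence for a rise through Gq-coupled bradykinin receptors. The relation of that response to these counts was not tested. Exons of other genes cover 24.1% of the exonic bases of BDKRB1 and 7.0% of those of BDKRB2. Of the protein-coding neighbours within 250 kb, 3 of 7 for BDKRB1 and 2 of 6 for BDKRB2 were tested, and none was called.

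The promoters of the kinin receptor genes are shown in the same way because both genes were at or near 0, chr14:96204589-96204678 for BDKRB2 and chr14:96255960-96256209 for BDKRB1, both on the plus strand of GRCh38.p14, with CG pairs in capitals.
BDKRB2: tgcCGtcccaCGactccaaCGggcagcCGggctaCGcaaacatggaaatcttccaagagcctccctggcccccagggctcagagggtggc
BDKRB1: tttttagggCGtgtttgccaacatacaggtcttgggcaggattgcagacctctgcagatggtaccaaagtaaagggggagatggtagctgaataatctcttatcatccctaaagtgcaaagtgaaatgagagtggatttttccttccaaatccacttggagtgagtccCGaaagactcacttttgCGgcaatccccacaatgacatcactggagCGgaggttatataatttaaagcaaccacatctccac
The full 250 bases hold 12 CG pairs in BDKRB2, near the median of 11, and 4 in BDKRB1, a number that 34.3% of the promoters in the table do not exceed. These genes therefore did not share a low or a high number of CG pairs.

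S1P receptors shifted in opposite directions. S1PR1, the principal S1P receptor of endothelium (ENSG00000170989, chr1:101236865-101243713, plus strand), reached 199.5 CPM in EA.hy926 replicate 1 and 179.5, 178, 172 and 174 CPM in replicates 2 to 5, against 91.1, 91.8, 89.9, 87.7 and 83.4 CPM in HMEC-1. The lines were apart, with replicate 1 of EA.hy926 standing above its 4 companions. S1PR1 was 2.04-fold higher in EA.hy926 (log2FC 1.03, SE 0.037, adjusted p = 1.3e-16, edgeR). Its call rested on the fold threshold: the log2FC was 0.99 without EA.hy926 replicate 1, 0.99 without HMEC-1 replicate 5 and 0.89 with library totals as the only scaling, and a test against a log2FC of 1 gave an adjusted p of 0.288 (glmTreat of edgeR).

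S1PR3 was the receptor lower in EA.hy926 (ENSG00000213694, chr9:88990863-89005155, plus strand). It was measured at 13.6, 13.1, 14.0, 12.9 and 12.6 CPM in EA.hy926 cultures and at 71.0, 71.8, 70.8, 68.4 and 70.1 CPM in HMEC-1. All HMEC-1 libraries were several times above all EA.hy926 libraries. The level was 5.33-fold lower in EA.hy926 (log2FC -2.41, SE 0.036, adjusted p = 3.1e-23, edgeR), a larger difference than for any of the other 7 receptor genes tested. SHC3, an adaptor gene on the opposite strand that ends 0.616 kb beyond the end of S1PR3, went the other way, with 688 to 770 counts in EA.hy926 against 42 to 71 (log2FC 3.76, SE 0.087, adjusted p = 5.5e-20, edgeR).

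The counts of S1PR3 per 100 counts of S1PR1 were 7.32 ± 0.379 in EA.hy926 and 79.4 ± 2.64 in HMEC-1 (mean ± SD, n = 5 each). They ranged from 6.80 to 7.84 and from 77.9 to 84.1, respectively. The ratio was 10.8-fold lower in EA.hy926. It was not tested, because it was also chosen after the values were seen and its direction follows from S1PR1 being higher and S1PR3 lower in EA.hy926.

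S1PR2, the remaining S1P receptor gene described here, was scarce and did not differ detectably (ENSG00000267534, chr19:10221433-10231331, minus strand). It had 57, 77, 53, 86 and 60 counts in EA.hy926 and 69, 54, 72, 54 and 59 in HMEC-1, which are 1.54, 2.32, 1.51, 2.24 and 1.62 CPM against 1.97, 1.32, 1.56, 1.33 and 1.54 CPM. The lines overlapped, with the highest values in EA.hy926 replicates 2 and 4. The log2FC was 0.26 with a 95% interval of -0.08 to 0.60 (adjusted p = 0.137, edgeR), so that a difference of up to 1.51-fold toward EA.hy926 lies within the interval. Nearly all of S1PR2 lies inside DNMT1, whose exons cover 2.28% of its exonic bases. Both genes are on the minus strand, so counting by strand could not separate their reads. DNMT1 had at least 7784 counts in every library, and a small share of its reads could make up part of the S1PR2 counts. The size of that part, and its effect on the level and interval of S1PR2, was not tested. Of 22 protein-coding neighbours of S1PR2 within 250 kb, 13 were tested, and SHFL (log2FC 1.03) and PDE4A, a cyclic AMP phosphodiesterase gene (log2FC -1.37), were called. SHFL was no longer called without EA.hy926 replicate 4 (0.99), HMEC-1 replicate 3 (0.97) or HMEC-1 replicate 4 (0.99), nor with library totals (0.89) or glmTreat (adjusted p = 0.457, edgeR).

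LPAR1 encodes the most widely expressed LPA receptor (ENSG00000198121, chr9:110873263-111038470, minus strand). It was measured at 108, 114, 116, 119 and 125 CPM in EA.hy926 cultures and at 37.4, 37.0, 37.2, 37.8 and 37.6 CPM in HMEC-1. HMEC-1 libraries were nearly equal, EA.hy926 libraries more spread, and the groups apart. LPAR1 was 3.11-fold higher in EA.hy926 (log2FC 1.64, SE 0.034, adjusted p = 1.0e-20, edgeR). Its single tested neighbour within 250 kb, MUSK, the gene of a receptor kinase known from the neuromuscular junction, was also called higher, with 28 to 37 counts against 1 to 8 (log2FC 3.43, SE 0.32). Like IQGAP2, MUSK passed the filter on low counts through its EA.hy926 libraries. Near F2RL3, 6 of 8 neighbours were tested and HAUS8, a gene of spindle assembly, lay at the threshold (log2FC -1.0). It was no longer called without EA.hy926 replicate 1 (-0.98), 2 (-0.97), 3 (-0.996) or 4 (-0.98), nor with DESeq2 (-0.997), RLE factors (-0.997), at least 10 counts in every library (-0.992) or glmTreat (adjusted p = 0.701, edgeR).

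**Figure D3:**
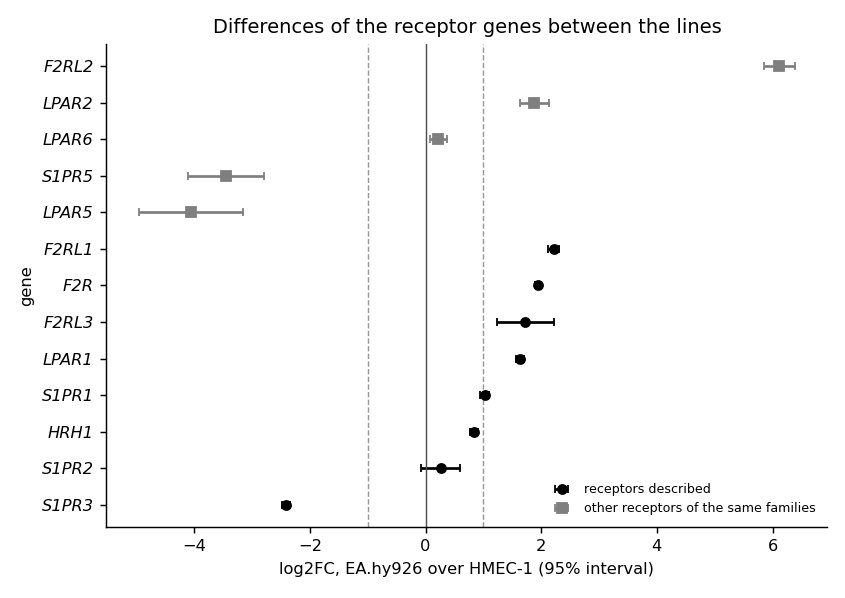
Log2FC (EA.hy926 over HMEC-1) with 95% intervals for the 8 receptor genes tested, as black circles, and the 5 tested relatives of the same families, as grey squares, with dashed lines at the fold threshold. F2RL1, F2R, F2RL3 and LPAR1 lie right of the threshold, the interval of S1PR1 crosses it, HRH1 lies inside it, S1PR2 reaches across 0, and S1PR3 lies at -2.41.

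Levels of different receptors were compared as CPM (TMM-scaled) per kb of merged exons, without a test. In EA.hy926 the order was F2R (72.0 ± 2.39, mean ± SD, n = 5), S1PR1 (34.6 ± 2.09), LPAR1 (28.1 ± 1.49), F2RL1 (24.0 ± 1.06), HRH1 (11.7 ± 0.221) and S1PR3 (0.964 ± 0.0413), each above the next in 5 of 5 libraries. F2RL3 (0.522 ± 0.171) and S1PR2 (0.507 ± 0.110) ended the order, and their levels overlapped, with F2RL3 the higher in 3 of 5 libraries. In HMEC-1 F2R (18.7 ± 0.458) and S1PR1 (17.0 ± 0.648) were close to each other and came before LPAR1 (9.04 ± 0.0727), HRH1 (6.56 ± 0.166), F2RL1 (5.18 ± 0.327), S1PR3 (5.14 ± 0.0956), S1PR2 (0.424 ± 0.0722) and F2RL3 (0.156 ± 0.0388). Only F2RL1 and S1PR3 could not be ordered there, F2RL1 being the higher in 3 of 5 libraries. F2R thus led in both lines, and S1PR3 stood far below HRH1 in EA.hy926 and near F2RL1 in HMEC-1.

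The place of S1PR3 depended on the length used, because its annotated exons merge to 13702 bases while its canonical transcript has 4330. Per kb of canonical transcript S1PR3 was at 3.05 ± 0.131 in EA.hy926 and 16.3 ± 0.302 in HMEC-1 (mean ± SD, n = 5), place 6 in EA.hy926 as before but place 3 in HMEC-1. S1PR1, with 5223 and 2778 bases by these lengths, was then first in HMEC-1 at 32.0 ± 1.22, ahead of F2R at 19.96 ± 0.488. In EA.hy926 all 8 receptors kept their place, with F2R at 76.8 ± 2.55 and S1PR1 at 65.1 ± 3.93. Of the summed levels of S1PR1, S1PR2 and S1PR3 per kb of merged exons, S1PR1 made up 95.9% ± 0.380 in EA.hy926 and 75.3% ± 0.654 in HMEC-1. S1PR3 made up 2.68% ± 0.134 and 22.8% ± 0.570. With canonical lengths the S1PR3 share was 4.45% ± 0.219 and 33.5% ± 0.722. The sum of F2R, F2RL1 and F2RL3 changed less in make-up. Per kb of merged exons, F2R made up 74.6% ± 0.583 of it in EA.hy926 and 77.8% ± 0.739 in HMEC-1. These shares ranged from 74.0% to 75.4% and from 76.6% to 78.6%, without overlap. The summed level was 96.6 ± 3.19 against 24.1 ± 0.720. F2RL2, the protease receptor gene with a log2FC of 6.12, was not part of this sum.

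**Figure D4:**
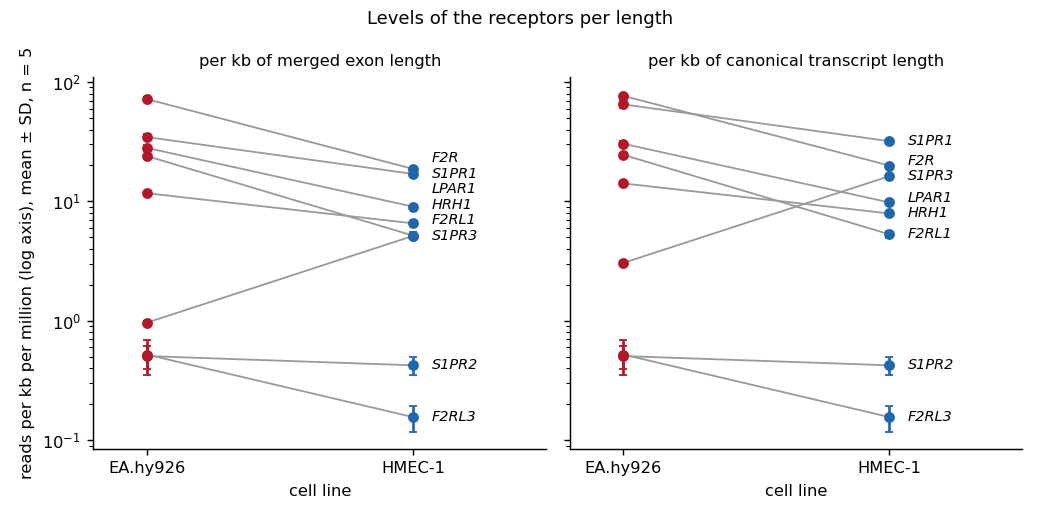
Mean level (CPM per kb, log axis, bars of 1 SD, n = 5) of the 8 receptors with counts in each line, joined by grey lines, per kb of merged exons on the left and of the canonical transcript on the right. S1PR3 rises from EA.hy926 to HMEC-1 while the others fall or, for S1PR2, stay within their spread, and S1PR3 reaches 5.14 or 16.3 in HMEC-1 depending on the length.

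The remaining members of the receptor families were 11 genes, of which 5 were tested, and 2 were called higher and 2 lower in EA.hy926. Over all genes tested, 35.5% were called. F2RL2, described above, and LPAR2, a second LPA receptor with 170 to 247 against 55 to 65 counts (log2FC 1.88, SE 0.12), were the higher ones. LPAR5, with 0 to 3 counts in EA.hy926 against 16 to 36 in HMEC-1, was at least 7.67-fold higher in HMEC-1, and S1PR5, known from natural killer cells and brain, had 1 to 8 against 38 to 50 counts (log2FC -3.45, SE 0.32). LPAR6, with 303 to 386 and 281 to 409 counts, had a log2FC of 0.22 (adjusted p = 0.0061, edgeR) and was not called. LPAR5 and S1PR5 passed the filter on low counts through their HMEC-1 libraries, as F2RL2 did through its EA.hy926 libraries. Hardly any outcome but a call was thus open to them. The median log2FC of the 5 was 0.22. LPA receptors were therefore not all higher in EA.hy926, as LPAR1 and LPAR2 were higher and LPAR5 lower.

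Among 22 other receptors listed for Ca2+ signalling, 7 were tested, with 1 called higher and 4 lower in EA.hy926 and a median log2FC of -2.19. Over all genes tested, 19.1% were called higher and 16.4% lower. The endothelin receptor genes were each found in a different line. EDNRB had 316 to 342 counts in EA.hy926 against 0 to 1, at least 105-fold higher, and EDNRA had no read in any EA.hy926 library and 16 to 23 reads in HMEC-1 libraries, at least 5.48-fold lower. ADRA1B, an adrenergic receptor gene (log2FC -3.29, SE 0.16), CHRM4, a muscarinic receptor gene with 1 to 4 against 12 to 20 counts (log2FC -2.91, SE 0.37), and TBXA2R, the thromboxane receptor gene (log2FC -2.19, SE 0.091), were the others lower in EA.hy926. In 10 of the 22 genes no library of either line had more than 3 counts. EDNRB passed the filter on low counts through its EA.hy926 libraries, and EDNRA and CHRM4 through their HMEC-1 libraries. With so few counts in the other line, hardly any outcome but a call was open to them. The list median includes their values.

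Genes that supply or remove the ligands numbered 34, of which 21 were tested, 10 called higher and 2 lower, with a median log2FC of 0.11. Over all genes tested, 19.1% were called higher and 16.4% lower. HNMT, the enzyme that methylates histamine, had 503 to 559 counts in EA.hy926 against 0 to 5 (log2FC 8.01, SE 0.18). With HMEC-1 near 0, its log2FC ranged from 7.71 to 8.51 with each library left out. For thrombin, SERPIND1, the gene of the inhibitor heparin cofactor, was higher in EA.hy926 (60 to 97 against 1 to 5 counts, log2FC 4.92, SE 0.27) and SERPINE2, another thrombin inhibitor, was lower (128 to 157 against 17783 to 23243 counts, log2FC -6.98, SE 0.042). For kinins, MME, the gene of neprilysin, which degrades bradykinin, was higher (342 against 16.4 CPM, log2FC 4.38, SE 0.038), and KLK1, the gene of tissue kallikrein, which releases kinins, had 0 to 1 counts in EA.hy926 against 79 to 123 in HMEC-1, at least 29.0-fold lower. For LPA, PLPP2, a lipid phosphatase gene, was higher in EA.hy926 (41.4 against 2.17 CPM, log2FC 4.26, SE 0.066). The number called lower was 4 in place of 2 without EA.hy926 replicate 3, without HMEC-1 replicate 1 or without HMEC-1 replicate 2. HNMT and SERPIND1 passed the filter on low counts through their EA.hy926 libraries, and KLK1 through its HMEC-1 libraries. With so few counts in the other line, hardly any outcome but a call was open to these genes.

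Between receptor and Ca2+ store, all 20 genes listed were tested, 4 were called higher and 2 lower, and the median log2FC was -0.18. Those 6 of 20 stand beside 35.5% called over all genes tested, so their number is not read as a result about the list. The genes called were forms of phospholipase C beta, G alpha subunits and an inositol trisphosphate receptor. PLCB1 (91.5 against 1.03 CPM, log2FC 6.47, SE 0.077), PLCB4 (147 against 11.8 CPM, log2FC 3.64, SE 0.064), ITPR1 (44.1 against 5.90 CPM, log2FC 2.91, SE 0.044) and the scarce GNA15 (20 to 33 against 3 to 10 counts, log2FC 2.27, SE 0.30) were higher in EA.hy926. PLCB2 (19 to 33 against 116 to 169 counts, log2FC -2.34, SE 0.14) and GNA14 (5 to 12 against 59 to 90 counts, log2FC -3.02, SE 0.20) were lower. GNA15 passed the filter on low counts through its EA.hy926 libraries and GNA14 through its HMEC-1 libraries. With few counts in the other line, hardly any outcome but a call was open to these genes.

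Of 12 genes that end receptor signals, 11 were tested, 3 were called higher and 2 lower, and the median log2FC was -0.33. These 5 of 11 again stand beside 35.5% of all genes tested, and their number is not read as a result. RGS5, which speeds the switching off of G alpha subunits, was at 430.0 against 5.05 CPM (log2FC 6.41, SE 0.047). RGS2 (log2FC 1.53, SE 0.12) and ARRB1, an arrestin gene (log2FC 1.21, SE 0.041), were also higher. The receptor kinase genes GRK3 (4.36 against 47.3 CPM, log2FC -3.44, SE 0.050) and GRK4 (log2FC -1.46, SE 0.092) were lower. All log2FC values of these lists are from the same edgeR fit as those of the receptors, and the list medians were the same with genes near 0 set at their bounds.

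**Figure D5:**
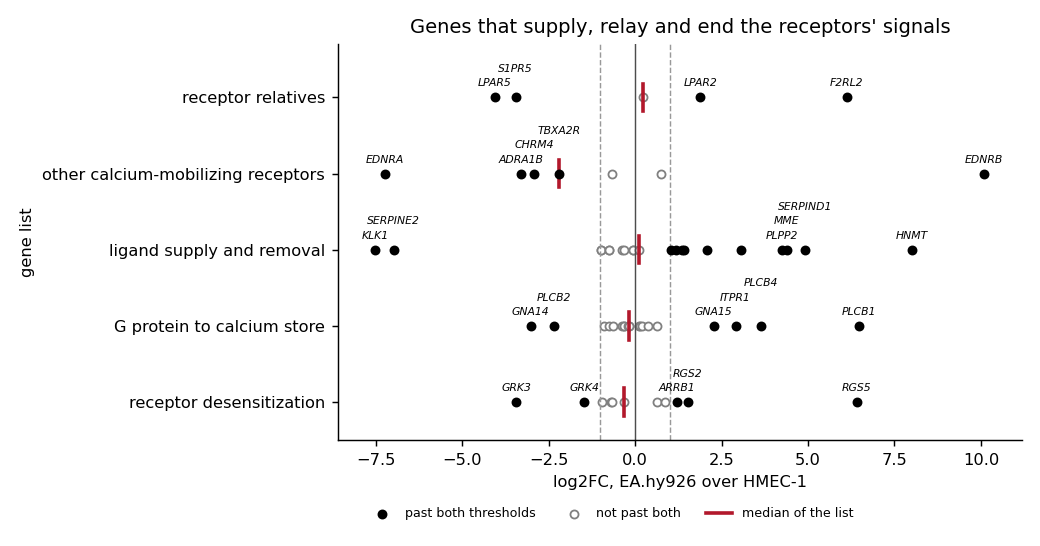
Log2FC (EA.hy926 over HMEC-1) of the tested genes of 5 lists, 1 point per gene, filled where called and named by the rule for named genes, with the list median in red and dashed lines at the fold threshold. Filled points lie on both sides in every list, and the medians lie between -2.19 and 0.22. Plotted values of EDNRB, EDNRA, HNMT, KLK1 and LPAR5, which are at or near 0 in a line, depend on the prior count of the fit.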

How the data were processed

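RNA-seq of 10 libraries was analysed, and the line and replicate number of each were taken from the labels. Polyadenylated RNA was captured on oligo(dT) beads by the authors, who aligned reads to GRCh38 with HISAT2 and deposited raw read counts per gene, neither normalized nor filtered. The paper's methods name HTSeq as the counter, while the submitters' processing notes list featureCounts, with fastp, HISAT2 and DESeq2. Versions, annotation release and strand setting are not given in the sources used here, so counts of overlapping genes are uncertain.

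Of 60448 identifiers, 56434 matched GENCODE 44. Low genes were removed by filterByExpr (minimum count 10 and minimum total 15), scaled by TMM factors and tested with glmQLFit and glmQLFTest of edgeR 4.0.16 (R 4.3.3), with Benjamini-Hochberg adjustment over 16310 genes. The standard error of a log2FC is its size divided by the square root of F. A gene with at most 3 counts in every library of a line has its fold stated as a lower limit, which is the other line's mean CPM divided by the highest CPM that 3 counts make in a library of that line. Intervals cover counting error and the spread between libraries only. Floors cover counting error only, and a lower limit uses the other line's mean without its spread, so a single library can lie below such a limit. No libraries of a line were alike within sampling noise (chi-square per degree of freedom 3.08 to 7.63). The steps were tested on simulated data.

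Promoters are RefSeq entries on GRCh38.p14. Named were the 10 receptors, the tested relatives, of each other list the called genes of largest absolute log2FC (at most 4 per direction), and called protein-coding genes within 250 kb of a receptor (at most 2 each). The receptors and lists were chosen with earlier results of these data known. AGGF1, ZBED3, S100Z, CRHBP and HRH2 were named after their values were seen, and the 2 count ratios were also chosen then. Alternatives were DESeq2 1.42.0, limma-voom (limma 3.58.1), other filters and scalings, a replicate block, glmTreat, each library left out, and, chosen after seeing the data, other lengths. Tables were made with pandas and numpy in Python.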

Additional observations from a re-analysis of the deposited data

Results flagged for a closer look

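Of 81 groups of 5 libraries checked for a library that stands apart by Dixon's test, 3 had one, and chance alone gives about 1 in 20. S1PR1 in EA.hy926 replicate 1 was at 199.5 CPM, while the other 4 libraries of the line lay between 172 and 179.5 CPM. HNMT in EA.hy926 replicate 2 was at 16.6 CPM, and the others lay between 14.3 and 14.9 CPM. EDNRB in HMEC-1 replicate 1 was at 0.0285 CPM, which is 1 read, and the others were at 0.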

How the results depend on the processing

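Of the 8 receptor genes tested, 7 kept their direction and were called, or not called, as in the main fit under every alternative run. HRH1, not called in the main fit, has a log2FC below 1 and so cannot pass a glmTreat test against that value. S1PR1 kept its direction but fell below the fold threshold with library totals (log2FC 0.89) and was not past a glmTreat test against a log2FC of 1 (1.03, adjusted p = 0.288, edgeR), and it ranged from 0.99 to 1.05 with each library left out. The number of receptor genes called was therefore 5 or 6 under all alternatives. Library totals moved the median log2FC of all genes from -0.01 to -0.15, and the genes called from 3110 higher and 2674 lower to 2809 and 3085.

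The gene lists depended on the filter on low counts. With at least 10 counts in every library, 21 of their genes were called in place of 32, 1 of the relatives in place of 4, and 2 of the other receptors listed for Ca2+ signalling in place of 5. Without a filter, 7 relatives and 10 other receptors were called. These shifts follow from the genes that enter the test. The order of levels in HMEC-1 kept 2 of 8 places with canonical transcript length and 2 of 8 with coding length. Leaving out a library kept 6 to 8 places in each line. The RefSeq coding length that had been planned was not run, since no protein table was used here.

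Replicate numbers did not pair the libraries (correlations of same-numbered deviations from -0.0228 to 0.0389, 2 of 5 libraries closest to their own number). With the replicate number as a block, 6 receptor genes and 32 list genes were called, as without it.

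Depth limits the statements on BDKRB1 and BDKRB2, where a count of 0 allows up to 0.0904 CPM, and the precision of F2RL3 and S1PR2, with fewer than 90 reads per library.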
